A study of Homo sapiens with 3 samples.

Results

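The ETS family is a group of transcription factors that share a winged helix-turn-helix DNA-binding domain, the ETS domain, and bind DNA around the core GGAA. The roles of its members differ: some activate transcription, others repress it, and several are switched by phosphorylation through the ERK kinase. In Ewing sarcoma a translocation joins the start of EWSR1 to the end of an ETS gene, most often FLI1 and more rarely ERG, ETV1, ETV4 or FEV, so that the tumour depends on an ETS domain fused to the activating part of an RNA-binding protein. The fusion also binds runs of repeated GGAA.

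The genes described are FLI1, ERG, ETS1, ETS2, ELF1, ELK3, ELK4, ETV1, ETV4 and ETV6. They were chosen by gene symbol, 10 of the 22714 symbols in the deposited values, and all 10 were found. The other 18 ETS genes of the human genome are given beside them. The values come from RNA-seq with 1 library per group of the Ewing sarcoma line TC32, which is an established line. One library was made from cells with knockdown of EWS-FLI1, 1 from cells labelled as treated with YK at 3 µM for 15 hours, and 1 from cells labelled as wild-type control. YK, the name in the library's title of a compound whose full code name stands in the legends of the plots, is a small molecule reported to keep the fusion from the RNA helicase DHX9. It was dissolved in DMSO. The labels do not give the hairpin, the duration of the knockdown, or whether control cells were given DMSO or a hairpin of their own. The title of the knockdown library reads shEF while its values stand under the heading dEF. All 3 libraries come from 1 cell line, and with no replicates there is no spread between cultures, no test and no p-value, so higher and lower are said of single libraries.

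Levels are given as FPKM, the number of sequenced fragments relative to the length of the locus and the depth of the library, either as deposited or scaled. Scaling multiplied the knockdown library by 1.44, the YK library by 2.12 and the control by 0.325, so that the median compared gene was level, because the deposited values of named genes lay on different scales. In the median gene, deposited values were 4.42-fold lower after knockdown than in the control, and with YK 6.36-fold lower. A log2 ratio is the difference of log2(scaled FPKM + 1), with the counting standard error (SE) after it, and the 1 that is added shrinks the ratio of scarce genes. The SE covers counting error only, and rests on fragments estimated from the steps in low values and on the longest coding transcript of each gene, so it is approximate. The threshold for calling a gene higher or lower was a log2 ratio of 1 in either direction, and the 9939 genes compared were those whose deposited FPKM averaged 1 or more. Of the 10 ETS genes, 8 met that minimum, and ERG and ETS2 did not. Deposited values run highest in the control, so under this minimum a gene scarce in the control had to reach more in the other libraries to be compared.

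Of 8 Ewing sarcoma markers, 7 were compared and 6 were lower in the knockdown library, where 17% of all compared genes were lower, and none with YK. The seventh, NKX2-2, was at a log2 ratio of 0.43 in the knockdown library, and CD99 was listed at 0 in all 3 libraries. Whether the 0 of CD99 reflects its expression was not tested. The summed scaled FPKM of the 8 was 54.2 in the knockdown library and 262 with YK, against 266 in the control. Of 6 fibroblast markers, 5 were compared, and in the knockdown library 4 were higher and DCN was lower. Of all compared genes 17.3% were higher there. COL1A1 reached the minimum mainly through that library, with deposited FPKM of 1.99 there, 0.515 with YK and 0.948 in the control. The summed level of the 6 was 58.4 in the knockdown library and 24.8 with YK, against 26.5 in the control. Each of the 6 endothelial and 6 blood cell markers stayed under 1 scaled FPKM in all 3 libraries.

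The DNA-binding ends of FLI1 and ERG are close relatives, and FLI1 reads include those of the fusion, so the coding sequences were compared to see whether fragments of these genes could be confused. The longest run of identical bases in the coding sequences of FLI1 and ERG was 17 bases. It is shown in capitals with 30 bases of each side, 5′ to 3′, from GENCODE release 29 on GRCh38. The FLI1 stretch lies in exon 10 of its longest coding transcript, at chr11:128810512-128810588 on the plus strand, and that of ERG in exon 11 of its own, at chr21:38383794-38383870 on the minus strand.
FLI1: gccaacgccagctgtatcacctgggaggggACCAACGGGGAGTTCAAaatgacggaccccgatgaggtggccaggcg
ERG: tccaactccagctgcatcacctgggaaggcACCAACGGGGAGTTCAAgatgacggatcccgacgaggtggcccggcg
No transcript of one member held a run of 50 bases of another. In the longest coding transcript of each of the 10 genes, runs of at least 50 bases shared with a transcript of any other gene, on either strand, covered between 0% and 4.99% of the bases. The highest share was in ELK3, where a run of 210 bases is shared with AC008149.1. FLI1 and ERG had 1.35% and 0%. How the authors' counting treated fragments that fit several places is not given in the sources used here.

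FLI1, which gives the fusion its DNA-binding end, had the largest log2 ratio of the 28 ETS genes. Its deposited FPKM was 1.48 in the knockdown library and 8.29 with YK, against 65.9 in the control. Scaled, these levels were 2.13, 17.6 and 21.4 FPKM in the same order, from about 352, 2607 and 4160 estimated fragments. The log2 ratio to control was -2.84 (SE 0.06) in the knockdown library, past the threshold, and -0.27 (SE 0.03) with YK, short of it. The library labelled as knockdown was the low one, and the other 2 lay close together. Fragments of the fusion and of an unrearranged FLI1 allele fall on the same locus and cannot be told apart here.

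**Figure D1:**
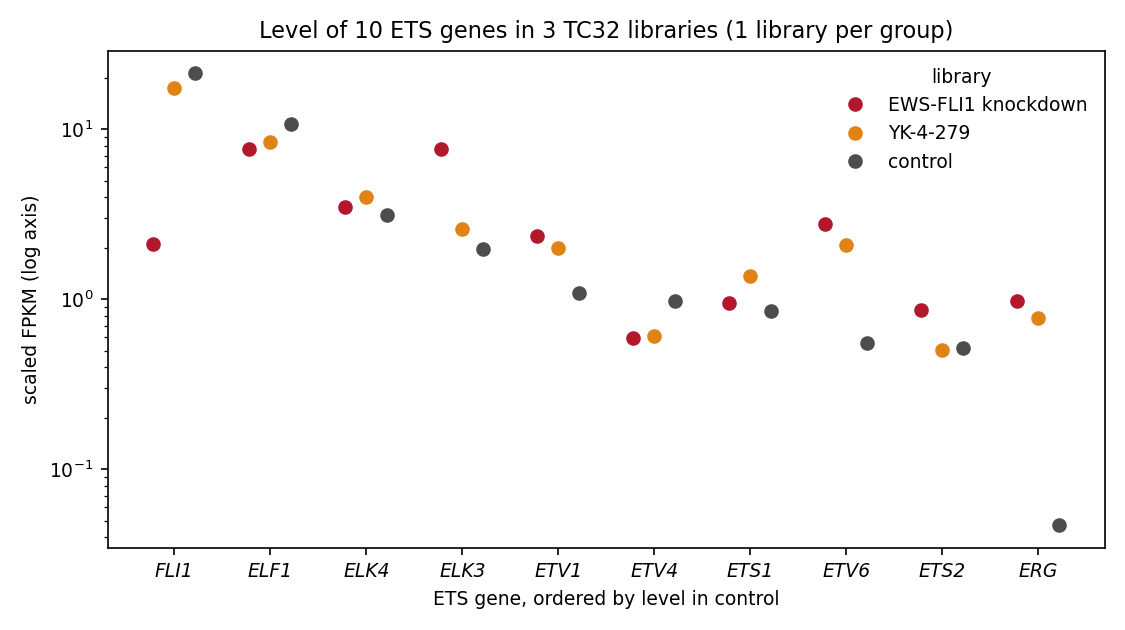
Scaled FPKM (log axis) of the 10 ETS genes in the knockdown, YK and control libraries, 1 point per library, with genes ordered by their level in the control. FLI1 stands at 2.13 in the knockdown library against 21.4 in the control, and ERG, at 0.047, is the lowest point of the control.

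Quotients of 2 genes within a library do not depend on the scaling between libraries. They still carry the trend with level of the knockdown comparison, described below. Against genes of their level the knockdown log2 ratio was 0.54 for EWSR1 and -0.13 for ELF1, beside -0.45 and -0.42 without that correction. FLI1 over EWSR1, the gene that gives the fusion its other end and is also transcribed from the unrearranged allele, was 0.0364 in the knockdown library and 0.228 with YK, against 0.267 in the control. FLI1 over ELF1, the second most abundant of the 10 genes in the control, was 0.276 in the knockdown library and 2.07 with YK, against 2.0 in the control. By both measures the knockdown library stood apart and the other 2 libraries lay close to each other.

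The make-up of ETS messenger RNA differed with it. FLI1 held 3.47% of the summed FPKM of the 28 ETS genes in the knockdown library and 25% with YK, against 29.9% in the control. It ranked 11 of 28 in the knockdown library and 1 of 28 in each of the others. The knockdown library was led by ETV3, a repressor, at 18.4%, ELF1 at 12.6% and ELK3 at 12.6%. ETV3 held 17.2% with YK and 17.7% in the control, so its own share differed little. The summed scaled FPKM of the 28 genes was 61.4 in the knockdown library and 70.2 with YK, against 71.4 in the control. Without FLI1 it was 59.3 in the knockdown library and 52.7 with YK, against 50.04 in the control. In bulk RNA, fewer cells that express a gene and less RNA per cell cannot be told apart.

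**Figure D2:**
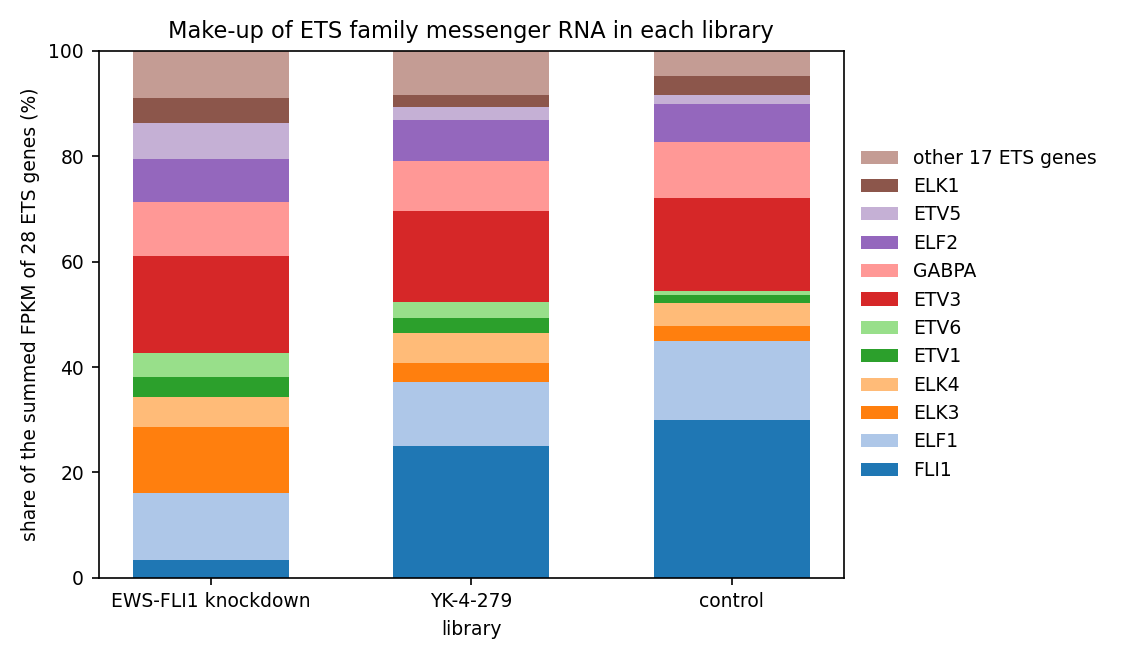
Share (%) of the summed deposited FPKM of the 28 ETS genes held by each named gene, with the other 17 pooled, in the knockdown, YK and control libraries, 1 bar per library. The FLI1 block is 3.47% in the knockdown library and 25% with YK, against 29.9% in the control, and the ELK3 block is widest in the knockdown library at 12.6%.

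Past the threshold in the knockdown library were FLI1, which was lower, and ELK3 and ETV6, which were higher, 3 of the 8 compared ETS genes. Of all 9939 compared genes, 17.3% were higher and 17% lower in that comparison, 34.2% in either direction, so a count of 3 in 8 is close to the background. The calls depend in part on the scaling: on the median of all named genes above 0, the knockdown log2 ratio was 1.03 for ELK3, 0.93 for ETV6 and -1.02 for ELF1, so that ETV6 lost its call and ELF1 gained one. The median log2 ratio of the 8 genes was 0.10, beside 0.0064 over all compared genes. With YK the count was 1 of 8, ETV6, which was higher, where 2.41% of all compared genes were higher and 1.69% lower, 4.11% in either direction. The median of the 8 was 0.27, beside 0.029 over all compared genes. Both comparisons use the same control library, so their values are not independent of each other.

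**Figure D3:**
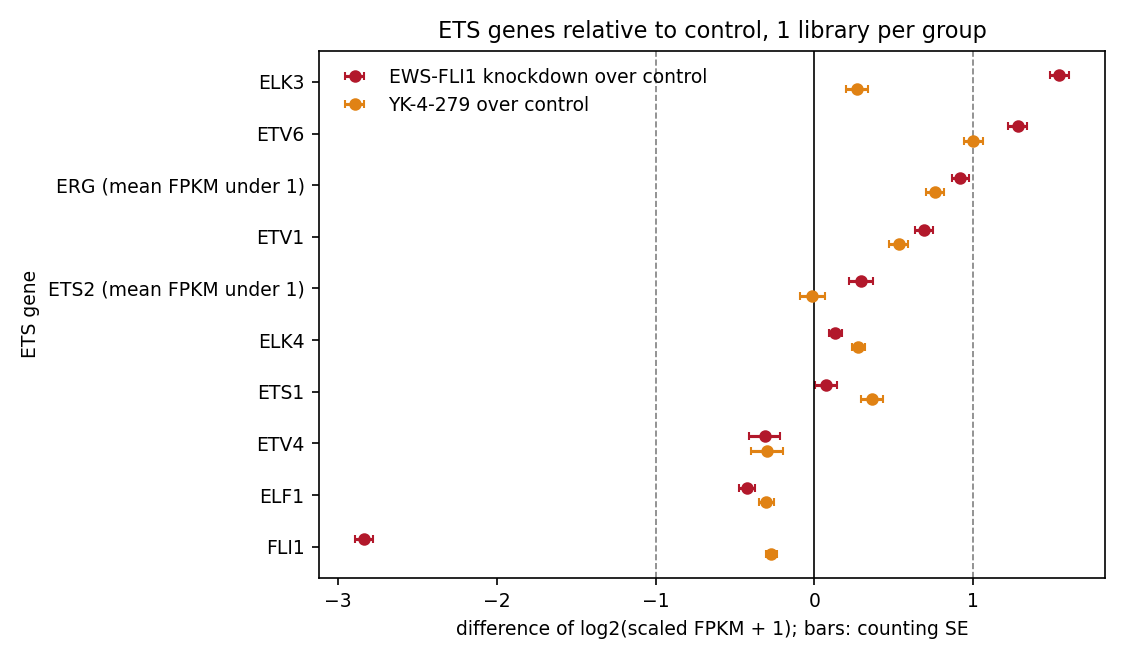
Difference of log2(scaled FPKM + 1) of each of the 10 ETS genes, knockdown over control and YK over control, with counting SE as bars and dashed lines at the threshold of 1 in each direction. FLI1 lies at -2.84 in the knockdown comparison and -0.27 with YK, and ELK3 at 1.54 in the knockdown comparison and 0.27 with YK.

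ERG, the closest relative of FLI1 and the second most frequent fusion partner of EWSR1, was scarce in all 3 libraries. Its deposited FPKM was 0.681 in the knockdown library and 0.365 with YK, against 0.145 in the control, or about 197, 139 and 11 estimated fragments in that order. Scaled, ERG had 0.981 FPKM in the knockdown library and 0.773 with YK, against 0.047 in the control, so the control was the lowest both as deposited and scaled. The log2 ratios were 0.92 (SE 0.05) in the knockdown library and 0.76 (SE 0.06) with YK, and ERG entered no count because its mean FPKM was under 1. Without the added 1 the scaled level was 20.9 times that of the control in the knockdown library and 16.5 times with YK. ERG stayed below FLI1, at 0.460 of the FLI1 level in the knockdown library and 0.0441 with YK, against 0.0022 in the control.

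Signal at loci with no gene name was also higher in the 2 treated libraries after scaling. The median of the 63683 unnamed loci was 0.200 scaled FPKM in the knockdown library and 0.318 with YK, against 0.0278 in the control. Olfactory receptor genes, which this tissue is not known to use, reached 0.30 scaled FPKM at their 95th percentile in the knockdown library and 0.405 with YK, against 0.0797 in the control. ERG stood above 100% of these 366 genes in the knockdown library and above 99.7% with YK, against 87.7% in the control. With the median of the unnamed loci taken off every locus first, the ERG log2 ratio was 0.81 for knockdown and 0.54 for YK. Against genes of its level it was 0.22 for knockdown and 0.71 for YK. ERG is also a gene of endothelial cells. Of the 6 endothelial markers, TEK had 0.811 scaled FPKM in the knockdown library against 0.0338 in the control, and KDR 0.328 against 0.0628. VWF had 0.210 against 0.0397 and PECAM1 0.104 against 0.0171. CDH5 and TIE1 were listed at 0 in the knockdown library and had about 2 and 1 estimated fragments in the control. The summed level of the 6 markers was 1.45 in the knockdown library and 1.51 with YK, against 0.173 in the control. Their part in the ERG values was not tested.

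ETS1 and ETS2, the founding pair of the family and both targets of ERK phosphorylation, were low and differed little on the scaled values. ETS1 had 0.948 scaled FPKM in the knockdown library and 1.38 with YK, against 0.851 in the control, with log2 ratios of 0.07 (SE 0.07) for knockdown and 0.36 (SE 0.07) for YK. ETS2 had 0.864 in the knockdown library and 0.506 with YK, against 0.519 in the control, with log2 ratios of 0.30 (SE 0.08) for knockdown and -0.01 (SE 0.08) for YK. With this scaling neither passed the threshold in any of the comparisons, and ETS2 was not among the compared genes. On deposited ratios centred on their median ETS1 was past it with YK, at 1.07. There ETS2 was at 1.13 with YK and 1.06 in the knockdown library. Against genes of their level the knockdown ratios were -0.47 for ETS1 and -0.60 for ETS2. ETS1 lies next to FLI1 on chromosome 11, as ETS2 lies near ERG on chromosome 21. While ETS1 differed by under the threshold, FLI1 was 10.04 times lower in the knockdown library on scaled FPKM without the added 1. The FLI1 value includes fragments of the fusion, so this contrast is not limited to neighbouring copies.

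ELF1, an activator best known in blood and endothelial cells but widely expressed, was abundant in all 3 libraries. It had 7.72 scaled FPKM in the knockdown library and 8.49 with YK, against 10.7 in the control. The log2 ratios were -0.42 (SE 0.05) for knockdown and -0.30 (SE 0.05) for YK, both short of the threshold. In the knockdown comparison, abundant genes were generally low, and with the median of the genes nearest in level taken off the ELF1 ratio there was -0.13.

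ELK3 and ELK4 are ternary complex factors, which bind DNA together with serum response factor (SRF) and are switched by ERK, ELK3 being a repressor until it is phosphorylated. ELK3 had 7.71 scaled FPKM in the knockdown library and 2.60 with YK, against 1.99 in the control, from about 1290, 391 and 391 estimated fragments. Its log2 ratio was 1.54 (SE 0.06) in the knockdown library, a 2.92-fold higher value, and 0.27 (SE 0.07) with YK. ELK4 had 3.52 scaled FPKM in the knockdown library and 4.0 with YK, against 3.12 in the control, with log2 ratios of 0.13 (SE 0.04) for knockdown and 0.28 (SE 0.04) for YK. The difference between the pair shows without any scaling: ELK3 over ELK4 was 2.19 in the knockdown library and 0.650 with YK, against 0.636 in the control. In the knockdown library ELK3 reached the level of ELF1, at a quotient of 0.998, against 0.186 in the control. As deposited, ELK3 had 5.35 FPKM in the knockdown library against 6.12 in the control, so that its direction rests on the scaling. It stayed past the threshold, at 1.18, against genes of its level. Of the 5 compared fibroblast markers 4 were higher in the same library, beside 17.3% of all compared genes, and DCN was lower, at -1.86. The part of these markers in the ELK3 value was not tested.

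The ETS domains of ELK3 and ELK4 share the longest identical coding run of the pairs compared, 28 bases, shown in capitals with 30 bases of each side because these genes gave different values. The stretch spans the junction of exons 2 and 3 in both genes, within chr12:96223768-96247021 on the plus strand for ELK3 and chr1:205620757-205623681 on the minus strand for ELK4 (GRCh38).
ELK3: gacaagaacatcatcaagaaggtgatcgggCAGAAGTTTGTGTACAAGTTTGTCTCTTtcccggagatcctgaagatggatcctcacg
ELK4: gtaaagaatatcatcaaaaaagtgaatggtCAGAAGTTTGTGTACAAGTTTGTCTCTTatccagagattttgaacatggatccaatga
A run of 28 bases is shorter than the 50 bases used above as a minimum. The corresponding run was 19 bases for ETS1 and ETS2 and 17 bases for ETV1 and ETV4.

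ETV1 and ETV4 belong to the PEA3 group, activators that are induced by growth factor signalling, held down by the repressor CIC and degraded through the ubiquitin ligase COP1. ETV1 had 2.37 scaled FPKM in the knockdown library and 2.02 with YK, against 1.09 in the control, with log2 ratios of 0.69 (SE 0.06) for knockdown and 0.53 (SE 0.06) for YK. ETV4 had 0.592 in the knockdown library and 0.610 with YK, against 0.979 in the control, with log2 ratios of -0.31 (SE 0.10) for knockdown and -0.30 (SE 0.10) for YK. On the scaled values the 2 genes stood on opposite sides of the control, and neither passed the threshold. ETV1 was past it in the knockdown library with a pseudocount of 0.1, at 1.06, and on centred deposited ratios, at 1.04. ETV1 over ETV4 was 4.0 in the knockdown library and 3.31 with YK, against 1.11 in the control, so this pair differed from the control in both treated libraries. Set against genes of its level ETV4 was lower in the knockdown library, at -1.19, and on deposited ratios centred on their median it was at 0.25, so no direction is given for it. ETV5, the third gene of the group and not among the 10, had 4.2 scaled FPKM in the knockdown library and 1.82 with YK, against 1.27 in the control. Its log2 ratio of 1.20 (SE 0.07) in the knockdown library was past the threshold and 0.32 (SE 0.08) with YK was not. Over the other scalings the knockdown ratio of ETV5 went down to 0.71, under the threshold, and as deposited it was at -0.33.

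ETV6, a repressor that forms polymers through its pointed domain, was the member called higher in both treated libraries. Its deposited FPKM was 1.92 in the knockdown library and 0.994 with YK, against 1.70 in the control. Scaled, it had 2.77 in the knockdown library and 2.10 with YK, against 0.551 in the control, with log2 ratios of 1.28 (SE 0.06) for knockdown and 1.00 (SE 0.06) for YK. ETV6 over ELF1 was 0.358 in the knockdown library and 0.248 with YK, against 0.0515 in the control, so within each library it was nearer to ELF1 after either treatment. The symbol sums 2 loci. The main locus had 1.37 FPKM in the knockdown library and 0.516 with YK, against 1.42 in the control, and the smaller had 0.553 in the knockdown library and 0.478 with YK, against 0.273 in the control. The smaller locus thus made up 28.8% of the ETV6 value in the knockdown library and 48.1% with YK, against 16.1% in the control. From the main locus alone the log2 ratio was 1.02 in the knockdown library and 0.52 with YK, so the YK call needs the smaller locus. Against genes of its level the ratios were 0.71 for knockdown and 0.92 for YK, both under the threshold.

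ELK4 and ETV4 also had 2 loci each, and the smaller one held 12.9% of ELK4 in the knockdown library and 9.85% with YK, against 3.03% in the control. For ETV4 it held 30.9% in the knockdown library and 14.0% with YK, against 1.37% in the control. In the main locus alone the ETV4 log2 ratios were -0.48 in the knockdown library and -0.37 with YK.

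Promoters of ELK3 and ETV6, the members called higher in the knockdown library, and of ELK4, which was not called, are shown because the ETS core GGAA is what these factors and the fusion bind. Each is 300 bases, from 250 before to 50 after a start site, read on the gene's own strand, from RefSeq on GRCh38.p14, with GGAA and its reverse complement TTCC in capitals. They are chr12:96194125-96194424 (ELK3, plus strand), chr12:96255248-96255547 (ELK3, plus strand), chr12:11649424-11649723 (ETV6, plus strand) and chr1:205631962-205632261 (ELK4, minus strand).
ELK3, first start: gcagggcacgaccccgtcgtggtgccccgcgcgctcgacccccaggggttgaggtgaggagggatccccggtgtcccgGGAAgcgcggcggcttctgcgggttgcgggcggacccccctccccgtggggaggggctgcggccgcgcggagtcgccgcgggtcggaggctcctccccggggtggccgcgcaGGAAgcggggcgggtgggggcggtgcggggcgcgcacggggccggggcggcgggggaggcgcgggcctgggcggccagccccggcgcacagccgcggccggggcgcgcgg
ELK3, second start: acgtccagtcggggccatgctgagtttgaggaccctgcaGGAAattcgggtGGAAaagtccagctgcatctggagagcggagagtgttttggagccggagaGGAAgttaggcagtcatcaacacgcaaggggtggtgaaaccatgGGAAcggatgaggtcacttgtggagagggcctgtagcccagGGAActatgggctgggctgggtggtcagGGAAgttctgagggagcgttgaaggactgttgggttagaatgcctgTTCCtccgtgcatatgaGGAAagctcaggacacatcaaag
ETV6: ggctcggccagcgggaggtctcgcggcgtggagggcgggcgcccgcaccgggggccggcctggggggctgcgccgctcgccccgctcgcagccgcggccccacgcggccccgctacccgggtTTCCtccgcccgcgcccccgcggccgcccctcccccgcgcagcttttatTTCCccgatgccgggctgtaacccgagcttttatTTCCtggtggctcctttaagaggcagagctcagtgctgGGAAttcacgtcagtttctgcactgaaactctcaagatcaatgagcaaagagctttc
ELK4: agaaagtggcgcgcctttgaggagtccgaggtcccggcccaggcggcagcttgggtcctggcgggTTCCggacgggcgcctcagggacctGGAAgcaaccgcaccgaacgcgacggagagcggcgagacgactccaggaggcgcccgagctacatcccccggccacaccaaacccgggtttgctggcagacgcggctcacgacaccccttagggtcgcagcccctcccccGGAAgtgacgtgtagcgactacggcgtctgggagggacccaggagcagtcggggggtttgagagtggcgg
The core was found 2 times at the first ELK3 start, 8 times at the second, 4 times at ETV6 and 3 times at ELK4, where 95.5% of 35116 promoter windows of this length hold at least 1 and the mean is 3.51. The longer ETS site CCGGAAGT, searched on both strands, overlaps the core and stands in the ELK4 window alone among the 19 windows listed for 7 of the members, its first base 22 bases before the start. It was present in 4.14% of all windows. The doubled core GGAAGGAA, also searched on both strands, was in none of these 4 windows but in 1 of ELF1 and 2 overlapping ones of ETV1, and in 3.67% of all windows. The second ELK3 window lies past the stretch of exons 2 and 3 shown above, which ends at chr12:96247021. A transcript from that start would not hold this stretch of the ETS domain. The values do not show which start the cells used, and a match is a description of letters only.

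Where the ETS genes stand among genes of their own level bears on the knockdown comparison. Ranked by their level with YK, the library that this comparison does not use, genes in the lowest of 5 equal groups had a median log2 ratio of 0.65 and those in the highest -0.96. ETS1 and ETV4 fell in the lowest group, ELK3, ETV1 and ETV6 in the second, ELK4 in the third, and FLI1 and ELF1 in the fourth, where the median was -0.47. FLI1 was well below its group. With the median of the genes nearest in level taken off, FLI1 was at -2.29 and ELK3 at 1.18, while ETV6 was at 0.71 and ETV1 at 0.11. With YK the medians of the 5 groups, ranked by level in the knockdown library, lay between -0.027 and 0.080.

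**Figure D4:**
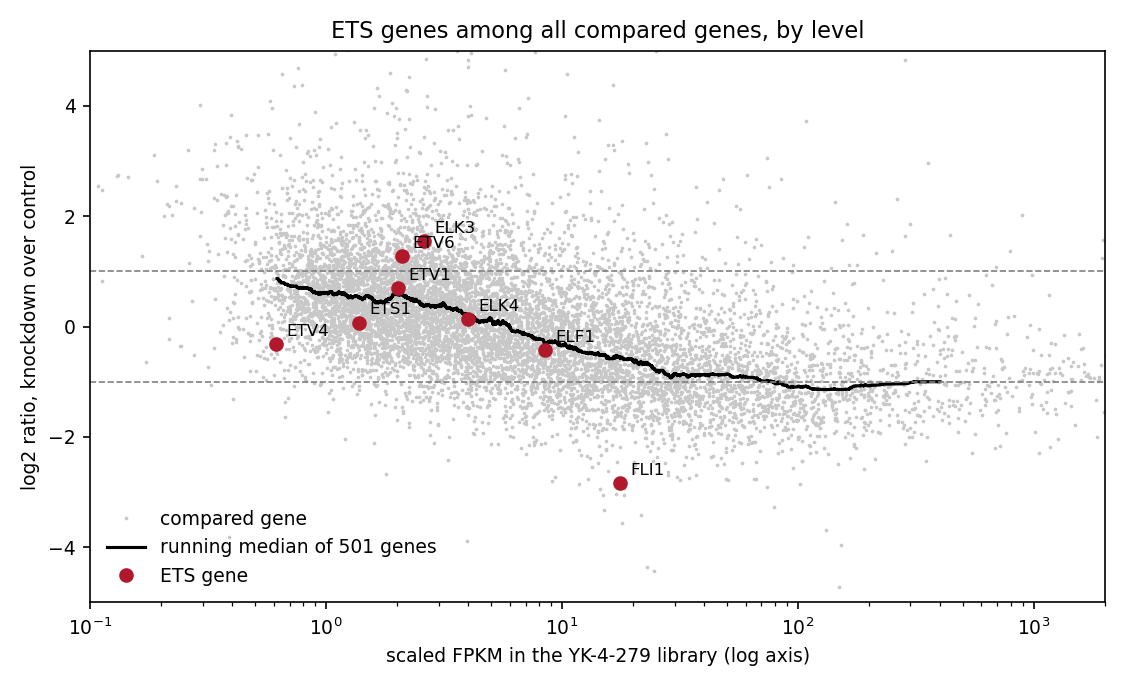
Log2 ratio, knockdown over control, of the compared genes against scaled FPKM in the YK library (log axis), with the 8 compared ETS genes in red, the running median of genes as a line and dashed lines at the threshold of 1; 107 genes lie outside the plotted range. FLI1 lies below the line at -2.84 and ELK3 above it at 1.54.

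Between the 2 treatments, FLI1 and ELK3 were the members that differed. Set against the knockdown library, FLI1 was higher with YK, at a log2 ratio of 2.57 (SE 0.06), and ELK3 was lower, at -1.28 (SE 0.06). The other 6 compared members lay between -0.28 and 0.29. Of all compared genes 15.3% were higher and 14.5% lower in this comparison, 29.8% in either direction, beside 1 and 1 of the 8 members. For ELK3 the ratio was -0.94 against genes of its level, under the threshold.

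The rest of the family was mostly scarce. Of the other 18 ETS genes 5 were compared, and 1 of these, ETV5, was past the threshold in the knockdown library and none with YK, beside 34.2% of all compared genes in the knockdown library and 4.11% with YK. ETV3 had 11.3 scaled FPKM in the knockdown library and 12.1 with YK, against 12.7 in the control. GABPA, which pairs with GABPB1 or GABPB2 and drives many housekeeping promoters, had 6.26 in the knockdown library and 6.74 with YK, against 7.52 in the control. ELF2 had 5.04 in the knockdown library and 5.42 with YK, against 5.17 in the control, and ELK1, the third ternary complex factor, had 2.90 in the knockdown library and 1.56 with YK, against 2.50 in the control. These 4 genes had knockdown log2 ratios between -0.23 and 0.16, and ratios between -0.45 and 0.06 with YK. The remaining 13, namely ELF3, ELF4, ELF5, EHF, ERF, ETV2, ETV3L, ETV7, FEV, SPDEF, SPI1, SPIB and SPIC, each had under 1 scaled FPKM in all 3 libraries. FEV, itself a rare fusion partner of EWSR1, had 0.0695 in the knockdown library and 0.503 with YK, against 0.247 in the control.

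Partners of ETS factors lay on both sides of the control. Of 13 partners and cofactors 10 were compared, of which the knockdown library had 2 higher and 2 lower, with a median log2 ratio of 0.04. That is 4 of 10 past the threshold, beside 34.2% of all compared genes. The histone acetyltransferases EP300 and CREBBP, which ETS factors recruit, were the higher ones, at 1.37 (SE 0.04) and 1.02 (SE 0.04). CBFB, the partner subunit of RUNX factors, and DHX9 were the lower ones, at -1.56 (SE 0.03) and -1.36 (SE 0.02). Against genes of their level CBFB and DHX9 were at -0.59 and -0.30, both short of the threshold. Over the other scalings EP300 went down to 0.90 and CREBBP to 0.57, and as deposited they were at -0.21 and -0.42. With YK none of the 10 passed the threshold. EWSR1 was at -0.45 for knockdown and -0.06 for YK, and against genes of its level at 0.54 for knockdown. SRF was at 0.67 for knockdown and 0.26 for YK.

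Among 11 repressors, ubiquitin ligase components and kinases that act on ETS proteins, 9 were compared, with a median of 0.34 in the knockdown library. The deubiquitinase USP9X, which stabilises ERG, was higher at 1.21 (SE 0.03), and ATXN1L, a partner of CIC, at 1.17 (SE 0.05). SPOP, a ubiquitin ligase adaptor for ERG, was lower at -1.27 (SE 0.03). These calls are 33.3% of the 9, close to the 34.2% of all compared genes past the threshold in either direction. No call here held in all scalings, since USP9X went down to 0.67, ATXN1L to 0.65 and SPOP to -0.40. As deposited, USP9X was at -0.61 and ATXN1L at -0.34. None of the 9 passed the threshold with YK. CIC was not compared, with 0.497 scaled FPKM in the knockdown library and 0.0676 with YK, against 0.0197 in the control. These values come from about 163, 20 and 8 estimated fragments in that order. The median of the unnamed loci was 0.200, 0.318 and 0.0278 scaled FPKM in the same order.

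Genes downstream of ternary complex factors and of ERK are given as a description, because EGR1, PHLDA1 and SPRED2 reached the minimum for comparison mainly through the knockdown library. Their deposited FPKM there was 4.91, 5.28 and 1.81, against 0.854, 0.408 and 1.36 in the control. Of 8 targets of ternary complex factors 4 were compared, and EGR1, at 2.66 (SE 0.06), and the survival gene MCL1, at 1.86 (SE 0.05), were higher and none was lower. EGR1 had 7.07 scaled FPKM in the knockdown library and 1.34 with YK, against 0.277 in the control. EGR2 went the other way without passing the threshold, at -0.60. Of 6 ERK output genes, 3 were compared and all 3 were higher: the phosphatase DUSP6 at 2.98 (SE 0.06), PHLDA1 at 2.92 (SE 0.04) and SPRED2, an inhibitor of the pathway, at 1.32 (SE 0.07). Beside both counts, 17.3% of all compared genes were higher in the knockdown library. DUSP6 had 11.6 scaled FPKM in the knockdown library and 1.71 with YK, against 0.599 in the control. With YK none of these 7 compared genes passed the threshold, and the highest was EGR1 at 0.87 (SE 0.08). Over the other scalings the knockdown ratio stayed past the threshold for EGR1, MCL1, DUSP6 and PHLDA1, at 1.26 or more, and went down to 0.74 for SPRED2. As deposited, MCL1 was at -0.10.

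Over the 3 libraries, the genes averaging 5 or more FPKM whose pair of log2 ratios to control lay nearest to that of FLI1, by Euclidean distance, were DCLRE1A, AKAP7, GINS1, COL13A1 and EXO1. Their distances lay between 0.067 and 0.19. DCLRE1A, a DNA crosslink repair nuclease, had 16.9 scaled FPKM in the knockdown library and 102 with YK, against 129 in the control. COL13A1, a transmembrane collagen, had 2.37 in the knockdown library and 18.4 with YK, against 24.6 in the control. With 3 libraries such a likeness is a description of 2 ratios per gene.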

How the data were processed

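RNA-seq libraries of TC32 cells (knockdown of EWS-FLI1, YK and control, 1 each) were deposited by the authors as FPKM for 88434 loci, of which 24751 carried a gene name. The submitters' processing notes list CASAVA 1.8.2, TopHat and Cufflinks 2.2.1, with GRCh37 (hg19) as the build. Annotation, filters, strand use and any scaling between libraries by the authors were not stated there or in the labels. SMARTer cDNA from total RNA was fragmented before library construction, per the labels' protocols.

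Loci were summed by symbol. No joined name held a member. Scaling used, per library, the median ratio to the geometric mean over compared genes above 0 in all 3 libraries, and was tested on simulated data. The simulation gave each library a uniform scale and changed few genes. It held no trend with level, so it does not show that the scaling suits these values. The scaling planned at first took all named genes above 0; the restriction to compared genes was made after seeing the values, and the wider scaling is given as an alternative. In 1 kb, 1 fragment was worth 0.0174 FPKM in the knockdown library, 0.0132 with YK and 0.0657 in the control. The estimates came from olfactory receptor genes with a value above 0 (111, 124 and 78 in that order) and from steps in low loci. These estimates set the counting errors, which hold nothing of the spread between cultures.

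The members and lists were chosen with earlier results of these data known. The genes named were the members, the rest of the family, list genes past the threshold (at most 6 a list by knockdown ratio) and the 5 genes nearest to FLI1. EGR2, SRF, EWSR1, CIC and the markers named were added after their values were seen. Other scalings, pseudocounts and filters were tried. Python 3.11.15, pandas 2.3.3 and numpy 2.4.6 were used.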

Additional observations from a re-analysis of the deposited data

How the results depend on the processing

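Over 12 alternatives the FLI1 log2 ratio in the knockdown library stayed past the threshold. Those that changed only the filter, the matching of names or the locus kept could not move it. The FLI1 ratio was -3.27 with a pseudocount of 0.1, -4.75 as deposited, -3.00 on centred deposited ratios and -2.29 against genes of its level. Scaled on all named genes above 0 it was -3.39, and scaled by the worth of 1 fragment -3.06. With YK over control it was -2.85 as deposited, -0.65 centred, -0.34 against genes of its level, -0.77 scaled on all named genes, -0.64 by the worth of 1 fragment and -0.16 with the median of unnamed loci taken off. With YK over knockdown it was 2.98, 1.91, 2.28, 2.05 and 2.42 with a pseudocount of 0.1, as deposited, centred, against genes of its level and by the worth of 1 fragment, and 2.70 with upper quartile scaling and 2.69 with unnamed loci taken off.

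The 2 members higher and 1 lower in the knockdown library were 0 and 5 as deposited, 1 and 2 against genes of their level or scaled on all named genes, and 0 higher at a mean FPKM of at least 5, where 2 members were left. With a pseudocount of 0.1 or on centred ratios, 3 were higher, ETV1 being added. With YK over control the 1 higher became 3 on centred ratios and 0 as deposited (7 lower, against 0), against genes of its level, at a mean FPKM of at least 5, scaled on all named genes, by the worth of 1 fragment, from the highest locus alone and with unnamed loci taken off. The 1 lower with YK over knockdown became 0 against genes of its level and at a mean FPKM of at least 5. As deposited, ELK3 in the knockdown library was at -0.16 and ETV6 with YK at -0.44, the reverse of their scaled directions, because deposited values carry the shift between libraries. The settings by worth of 1 fragment, highest locus and unnamed loci were chosen after seeing the data, as was the use of compared genes in place of all named genes for the scaling reported. The share of all compared genes past the threshold with YK over control ran from 2.62% with no filter on low values to 92.7% as deposited, and in the knockdown library from 18.6% to 74.4%. No paired analysis was possible because each group has 1 library.

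The design has no replicates, so it cannot separate a treatment from a library. Of the 10 members, ERG had the fewest estimated fragments in the control, about 11. ETV4 had the fewest in each treated library, about 57 in the knockdown library and 53 with YK.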
